A study of Mus musculus with 30 samples.

Results

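The 4 Hox gene clusters of the mouse were followed through spermatogenesis in lists of open chromatin regions. The clusters were taken as fixed windows on the files' coordinates, and a listed region, called a peak, was a member when its midpoint lay inside a window. The Hoxa window ran from 52.05 to 52.25 Mb on chromosome 6, the Hoxb window from 96.05 to 96.3 Mb on chromosome 11, the Hoxc window from 102.7 to 102.9 Mb on chromosome 15, and the Hoxd window from 74.45 to 74.65 Mb on chromosome 2. They span 850 kb together and held 239 of the 185395 peaks in the 4 lists, with 50 in Hoxa, 43 in Hoxb, 71 in Hoxc and 75 in Hoxd.

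The study took germ cells of 4 stages from the testes of C57BL/6 mice with no treatment named in the labels. Primitive type A spermatogonia (PriSG-A) came from day 6 after birth and type A spermatogonia (SG-A) from day 8, and pachytene spermatocytes (pacSC) and round spermatids (rST) came from adults. ATAC-seq, in which the Tn5 transposase cuts accessible DNA and the cut fragments are sequenced, was done on 3 libraries each of PriSG-A and SG-A and on 2 each of pacSC and rST. The authors deposited 1 peak list per stage. The PriSG-A list held 56792 peaks, that of SG-A 88369, that of pacSC 33775 and that of rST 6459. Read depth is unknown. Replicates cannot be separated, so replicate error is unknown, no p-value was computed, and each interval given is a 95% interval for counting error only. The labelled cell types were not checked against marker genes, because the peaks could not be assigned to genes.

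Hox genes encode homeodomain transcription factors that give cells their position along the body axis of the embryo. They lie in tight clusters in which gene order follows the order of expression along that axis, from the head to the tail. In tissues that do not use them they are textbook targets of the Polycomb repressor proteins, which bind CpG-rich DNA. In the RefSeq gene table on GRCm38 the 4 clusters hold 39 protein-coding Hox genes. There, Hoxa13 lies at the high-coordinate end of Hoxa, while Hoxb13, Hoxc13 and Hoxd13 lie at the low-coordinate ends of the other clusters. Sides of a window are named by this order, on the premise that it is the same on the files' coordinates.

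The peaks do not lie on the GRCm38 assembly, so none could be placed on a Hox gene or promoter, and their DNA sequence was not read. The promoters themselves are shown because their CpG content is the sequence feature the clusters are known for. RefSeq promoter sequences on GRCm38 matched 22 of the 39 Hox genes by symbol, with 24 promoters. CpG, read as the letters CG, which are the same on both strands, was counted in the 250 bases before each start. The Hox promoters held a median of 12.5 CpG, with a range from 2 to 35, and the 32851 promoters of the table a median of 6. At least 10 CpG were found in 15 of the 24 Hox promoters (62.5%) and in 37.8% of all promoters. The promoter richest in CpG of each cluster is given here from 5′ to 3′, with every CpG in capitals.
Hoxa13: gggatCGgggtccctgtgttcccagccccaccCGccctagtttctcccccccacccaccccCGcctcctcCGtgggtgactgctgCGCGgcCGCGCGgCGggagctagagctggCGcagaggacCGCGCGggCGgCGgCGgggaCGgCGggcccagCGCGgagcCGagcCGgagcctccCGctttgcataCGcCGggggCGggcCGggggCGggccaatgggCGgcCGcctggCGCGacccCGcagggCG
Hoxb4: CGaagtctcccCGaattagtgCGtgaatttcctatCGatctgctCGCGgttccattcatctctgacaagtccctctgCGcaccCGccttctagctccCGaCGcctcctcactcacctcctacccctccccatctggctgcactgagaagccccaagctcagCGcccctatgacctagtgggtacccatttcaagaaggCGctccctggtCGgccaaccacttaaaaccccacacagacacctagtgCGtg
Hoxc4: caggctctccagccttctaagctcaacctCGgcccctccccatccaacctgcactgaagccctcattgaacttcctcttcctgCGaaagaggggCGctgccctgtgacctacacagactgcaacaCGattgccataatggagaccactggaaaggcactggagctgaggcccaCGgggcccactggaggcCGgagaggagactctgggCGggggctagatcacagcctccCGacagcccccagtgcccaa
Hoxd13: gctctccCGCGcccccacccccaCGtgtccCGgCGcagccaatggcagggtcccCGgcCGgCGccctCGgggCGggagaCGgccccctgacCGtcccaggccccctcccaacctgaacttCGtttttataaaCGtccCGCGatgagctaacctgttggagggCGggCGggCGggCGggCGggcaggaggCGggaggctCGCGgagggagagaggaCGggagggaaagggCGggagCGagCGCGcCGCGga
On GRCm38, that of Hoxa13 lies at chr6:52260881-52261130 on the minus strand and holds 35 CpG. That of Hoxd13 lies at chr2:74667975-74668224 on the plus strand and holds 31. That of Hoxb4 lies at chr11:96318017-96318266 on the plus strand with 14, and that of Hoxc4, the one Hoxc promoter in the table, at chr15:103034145-103034394 on the plus strand with 8. As many CpG as in Hoxa13 occurred in 2.97% of all promoters, and as many as in Hoxc4 in 43.0%, so these 4 sequences range from CpG-dense to ordinary.

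The peaks of the windows were set beside the clusters by length. In SG-A the peaks of each window formed 1 long stretch with gaps of at most 35 kb, a limit chosen after the positions were seen. The stretch was 173 kb long in Hoxb, against 174 kb from the first to the last Hox gene on GRCm38. It was 141 kb in Hoxc against 116 kb, and 116 kb in Hoxd against 96.9 kb. It took in 39 of 40 peaks in Hoxa, 34 of 37 in Hoxb, all 40 in Hoxc and all 57 in Hoxd. The stretch of Hoxa was 108 kb long. In Hoxb the limit bridged the space from 96065056 to 96096369 and left out the peaks from 96269156 on. Because the limit followed the positions, these lengths do not test the identity of the clusters, which rests on the windows. The SG-A peaks nearest the window edges lay 5.51 to 51.1 kb inside and 1.53 to 88.2 kb outside.

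Open regions in the Hox clusters were most numerous in SG-A and absent from the list of rST. The windows held 41 PriSG-A peaks, 174 SG-A peaks, 24 pacSC peaks and 0 rST peaks. PriSG-A peaks covered 0.936% of the windows, SG-A peaks 6.09% and pacSC peaks 0.780%. In PriSG-A every cluster had some peaks, with 9 in Hoxa, 6 in Hoxb, 11 in Hoxc and 15 in Hoxd. In SG-A the counts were 40, 37, 40 and 57, and in pacSC 1, 0, 20 and 3. The 20 Hoxc peaks were thus most of the pacSC members. A count of 0 in the rST list allows up to 3 peaks, or 0.0464% of that list. The nearest rST peak to any cluster peak lay 62074 bp away.

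**Figure D1:**
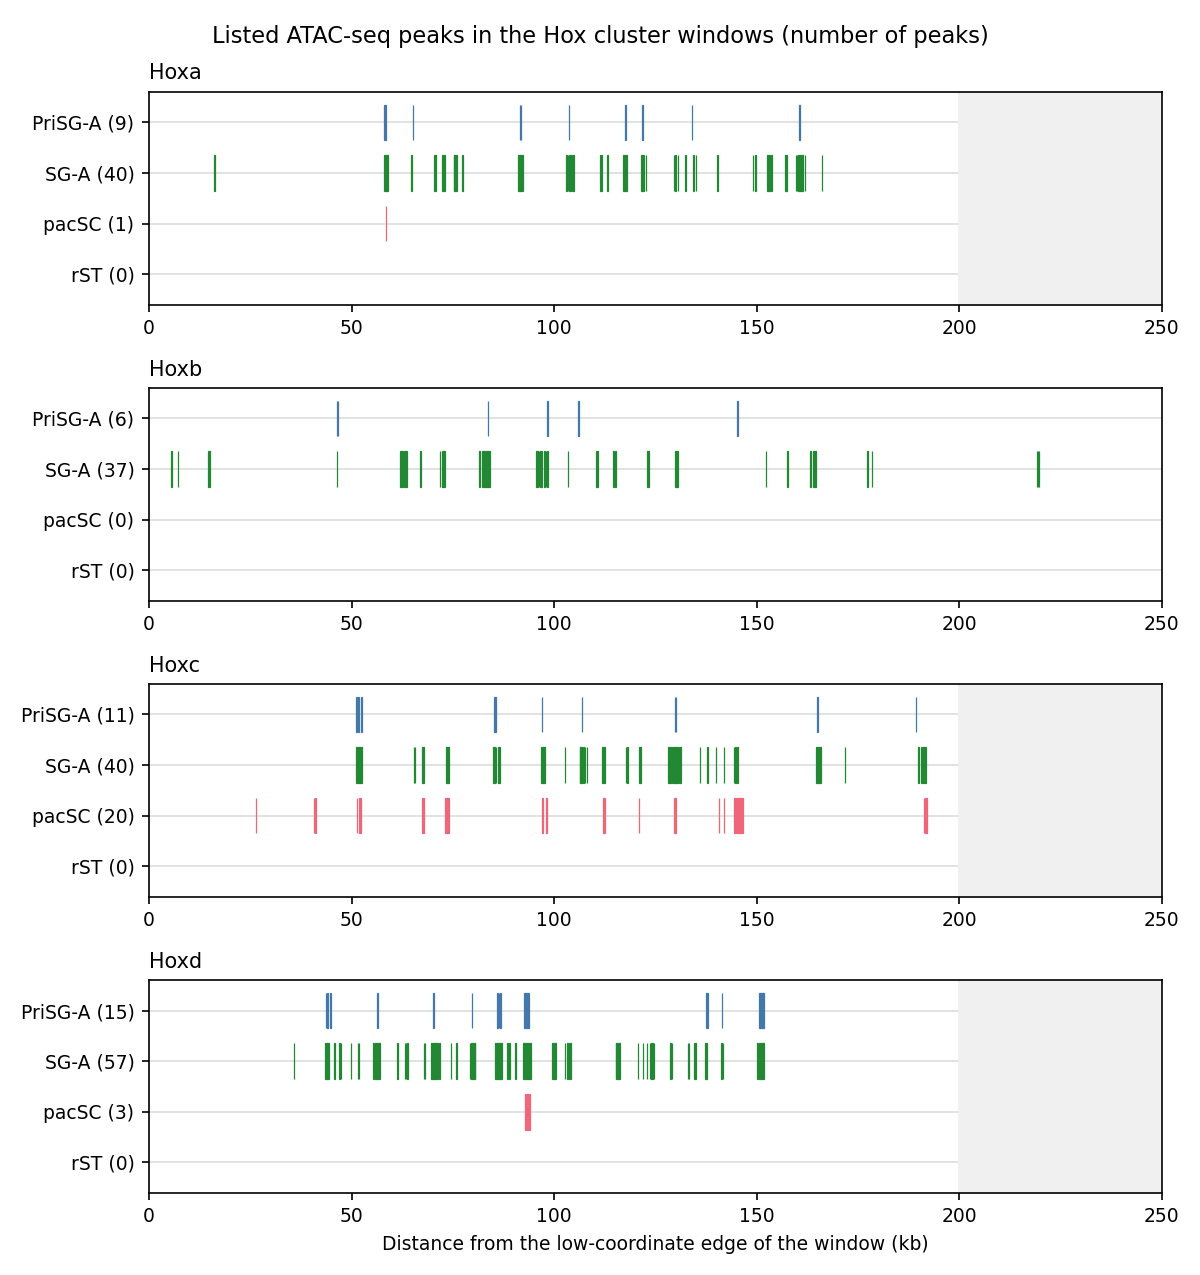
Position of every listed peak in the 4 Hox windows, in kb from the low-coordinate edge, with 1 row per stage and the number of peaks in brackets. Blocks have the width of the peak plus a thin outline, and grey marks what lies beyond a 200 kb window. SG-A peaks fill a stretch in each window, while pacSC peaks are spread over Hoxc and nearly absent from the others.

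Peaks were spread through the clusters rather than gathered at 1 site. Of 85 bins of 10 kb, 29 held a PriSG-A peak, 54 an SG-A peak, 12 a pacSC peak and 0 an rST peak. In Hoxd, 9 of the 15 PriSG-A peaks and 26 of the 57 SG-A peaks lay between 50 and 100 kb from the low edge. The next bin, from 100 to 150 kb and farther from Hoxd13, held 2 PriSG-A peaks and a similar number of SG-A peaks, 22. In Hoxc, 22 of 40 SG-A peaks lay between 100 and 150 kb. The occupied bins in pacSC were 10 of 20 in Hoxc, 1 of 20 in Hoxa, 1 of 20 in Hoxd and 0 of 25 in Hoxb.

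Among windows of 200 kb over the genome, the Hox windows of SG-A were among the densest. Of 12219 such windows with a peak in any list, 0.188% held at least the 57 SG-A peaks of Hoxd, and 0.745% at least the 40 of Hoxa or of Hoxc. The Hoxb count, scaled to 200 kb, was reached by 1.94%. In PriSG-A the same shares were 3.15% for Hoxd, 7.95% for Hoxc, 13.5% for Hoxa and 38.8% for Hoxb. In pacSC, 0.737% of windows reached the 20 peaks of Hoxc, while 27.1% reached the 3 of Hoxd and 75.6% the 1 of Hoxa. Hoxc was therefore near the top of the pacSC list by density, and Hoxb had no peak there.

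The flanks, 500 kb on either side of each window, gave the local background. In PriSG-A the clusters held 48.2 peaks per Mb and the flanks 25.3, a ratio of 1.91 (1.30 to 2.77). In SG-A they held 204.7 and 55 per Mb, a ratio of 3.72 (3.03 to 4.56). In pacSC they held 28.2 and 27.8 per Mb, a ratio of 1.02 (0.626 to 1.59). By number, the clusters stood above their surroundings in both spermatogonial lists, and in pacSC the ratio's interval included 1. By covered length only SG-A did, with 6.09% of the clusters against 2.46% of the flanks. PriSG-A peaks covered 0.936% against 0.993%, and pacSC peaks 0.780% against 1.29%. Without Hoxc the ratio was 3.15 (1.91 to 5.12) in PriSG-A and 4.99 (3.88 to 6.42) in SG-A. Both spermatogonial ratios depended on the weaker peaks. At a −log10 q of at least 5, where q is the false discovery rate given for each peak, that of PriSG-A was 0 (upper bound 1.69) and that of SG-A 1.43 (0.727 to 2.65). With each list held to the length of the rST list by its highest −log10 q, both were 0, with upper bounds of 1.69 and 1.01. With both spermatogonial lists held to the length of the pacSC list in that way, the PriSG-A ratio was 0.928 (0.483 to 1.66) and the SG-A ratio 2.63 (1.80 to 3.81). The rST flanks held 11 peaks, and the ratio of 0 has an upper bound of 1.87.

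**Figure D2:**
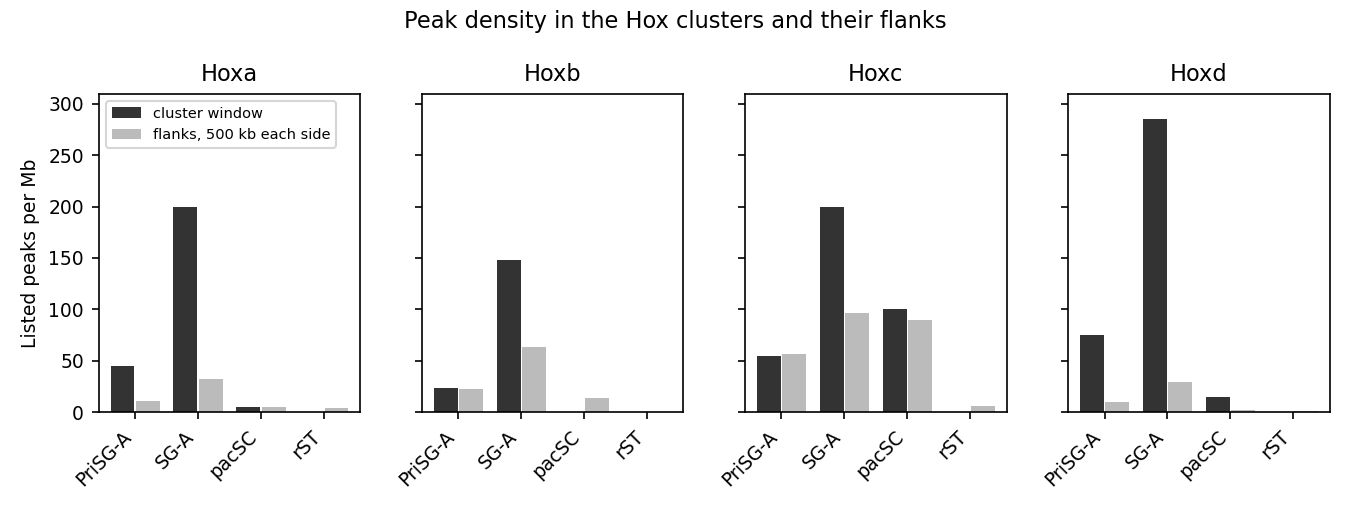
Listed peaks per Mb in each Hox window (black) and in the 500 kb on either side of it (grey), at each stage. In SG-A the black bar exceeds the grey one in all 4 clusters, whereas in pacSC the bars of Hoxc are 100 and 90 peaks per Mb.

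The clusters differed in how far they stood out. Hoxd had the emptiest surroundings among the clusters in both spermatogonial lists, with 10 flank peaks in PriSG-A and 29 in SG-A. Its ratio was 7.5 (3.15 to 18.7) in PriSG-A and 9.83 (6.18 to 15.9) in SG-A. Of its SG-A flank peaks, 5 lay on the Hoxd13 side and 24 on the Hoxd1 side. Hoxa had a ratio of 4.09 (1.498 to 10.9) in PriSG-A and 6.25 (3.83 to 10.3) in SG-A. Hoxb and Hoxc did not stand out by count in PriSG-A, at 1.04 (0.348 to 2.64) and 0.965 (0.456 to 1.86). In SG-A they reached 2.35 (1.52 to 3.58) and 2.08 (1.40 to 3.04). By covered length the PriSG-A peaks of Hoxb took up 0.270% of the window against 1.04% of its flanks, and those of Hoxc 0.816% against 2.23%. In SG-A the covered shares were 4.06% against 2.82% for Hoxb, and 6.16% against 5.40% for Hoxc. For Hoxa they were 6.22% against 0.934%, and for Hoxd 8.45% against 0.675%, so the contrast with the surroundings was far larger in these clusters.

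The comparison of PriSG-A with SG-A asked how accessibility differs between day 6 and day 8 spermatogonia. SG-A held 4.24 times as many peaks in the clusters (3.01 to 6.12), 2.18 times as many in the flanks (1.71 to 2.78) and 1.56 times as many in the whole list. The fold in the clusters was 1.95 times that in the flanks (1.29 to 2.95). The covered length was 6.51 times as large in the clusters, 2.48 times in the flanks and 1.71 times over the whole list. The fold in peak number was 4.44 (2.12 to 10.4) in Hoxa, 6.17 (2.58 to 17.9) in Hoxb, 3.64 (1.83 to 7.86) in Hoxc and 3.8 (2.12 to 7.23) in Hoxd. These 4 intervals overlap one another, and the fold over the flanks had an interval above 1 only in Hoxc, at 2.16 (1.03 to 4.54). Hoxb had a larger value with a wider interval, 2.25 (0.840 to 6.03). Hoxa had 1.53 (0.564 to 4.14) and Hoxd 1.31 (0.524 to 3.28), so the clusters are not told apart by it. Among the 237 windows of 200 kb that held 30 or more SG-A peaks, 14, or 5.91%, had a fold at least as large as the clusters' 4.24.

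List length entered this comparison. Held to the length of the PriSG-A list in the same way, the SG-A list held 103 cluster peaks, 2.51 times the 41 of PriSG-A (1.73 to 3.70). The flanks then held 146 peaks, 1.45 times the PriSG-A number (1.11 to 1.88).

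Many of the SG-A peaks had no counterpart in PriSG-A. Of the 174, 24 overlapped a PriSG-A peak by at least 1 bp, or 13.8% (9.45 to 19.7), against 38.5% over all SG-A peaks and 29.1% (23.5 to 35.4) in the flanks. All 10 cluster peaks at least 1000 bp wide had a PriSG-A counterpart, as did all 39 in the flanks and 98.2% of all such peaks. Peaks of that width were 10 of the 174 in the clusters and 39 of 220 in the flanks. Of the 164 narrower cluster peaks, 14 did, or 8.54% (5.15 to 13.8), against 28.7% of all. In the flanks the share of narrower peaks was 13.8% (9.53 to 19.6), and its interval overlaps that of the clusters. Cluster peaks of SG-A without a PriSG-A counterpart had a median width of 109 bp, and those with one 904 bp. Of the 14 with a −log10 q of at least 5, 12 had a counterpart (85.7%, 60.1 to 96.0), against 96.8% of all such peaks. In the other direction 31 of the 41 PriSG-A peaks were found in SG-A, or 75.6% (60.7 to 86.2), against 71.9% over all PriSG-A peaks and 90.1% (82.7 to 94.5) in the flanks. The share was thus near that of the whole list and below that of the flanks. When at least 50% of each peak had to overlap, it was 4 of 41, or 9.76% (3.86 to 22.5), against 32.2% over the list and 23.8% (16.5 to 32.9) in the flanks.

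**Figure D3:**
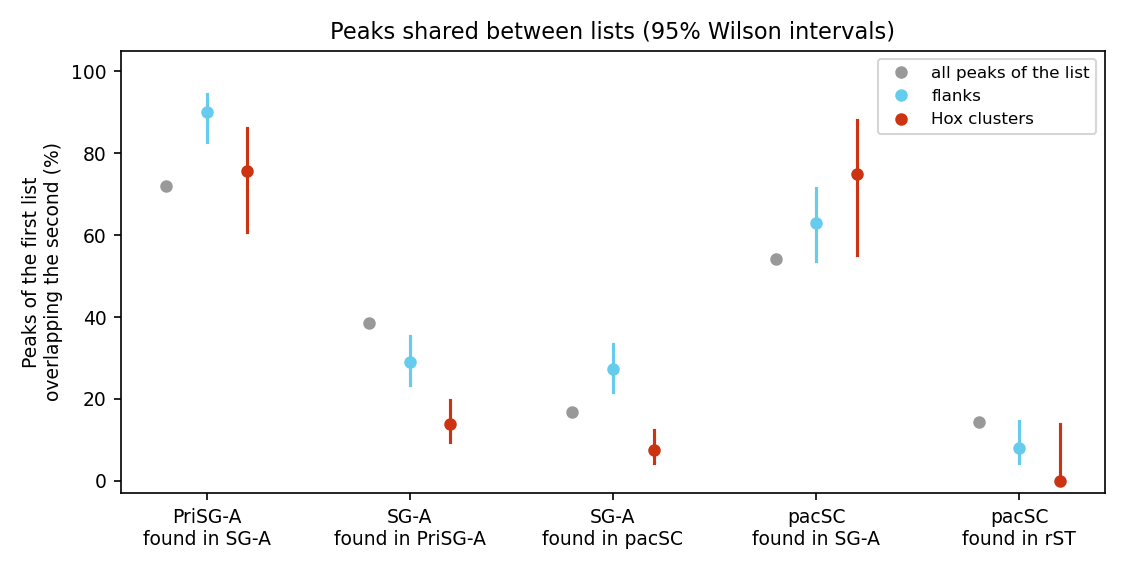
Percent of the peaks of a first list that overlap a peak of a second list, for all peaks (grey), the flanks (blue) and the Hox clusters (red), with 95% Wilson intervals. The Hox clusters lie below the flanks where SG-A peaks are sought in PriSG-A (13.8% against 29.1%) and in pacSC (7.47% against 27.3%). Clusters and flanks both include Hoxc, and their peaks were not matched by width.

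The cluster peaks were not strong ones within their lists. The authors give each peak a signal value, an area that grows with peak width and is used here only to rank peaks within 1 list. The median PriSG-A cluster peak ranked at the 32.3 percentile of signal value, the median SG-A one at the 44.3 percentile and the median pacSC one at the 39.1 percentile. In SG-A the median was 46.9 in Hoxa, 44.0 in Hoxb, 51.5 in Hoxc and 35.9 in Hoxd. The SG-A peaks of Hoxc also had a median −log10 q of 2.96, against 2.73 over the list, so Hoxc was not weak there. A −log10 q of at least 5 was reached by 0 of 41 cluster peaks in PriSG-A, against 9.49% of that list. In SG-A 14 of 174 reached it, or 8.05%, against 18.5% of the list, and in pacSC 1 of 24 did, against 10.7%. Of the rST list, 3.3% of peaks reached it. SG-A cluster peaks were 116.5 bp wide in the median, and those of the list 182 bp. When each list was held to the 6459 peaks of the rST list, PriSG-A and SG-A held no cluster peak and pacSC held 2, both in Hoxc. The density of cluster peaks in spermatogonia was therefore one of many weak peaks, none among the strongest of the list by −log10 q.

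**Figure D4:**
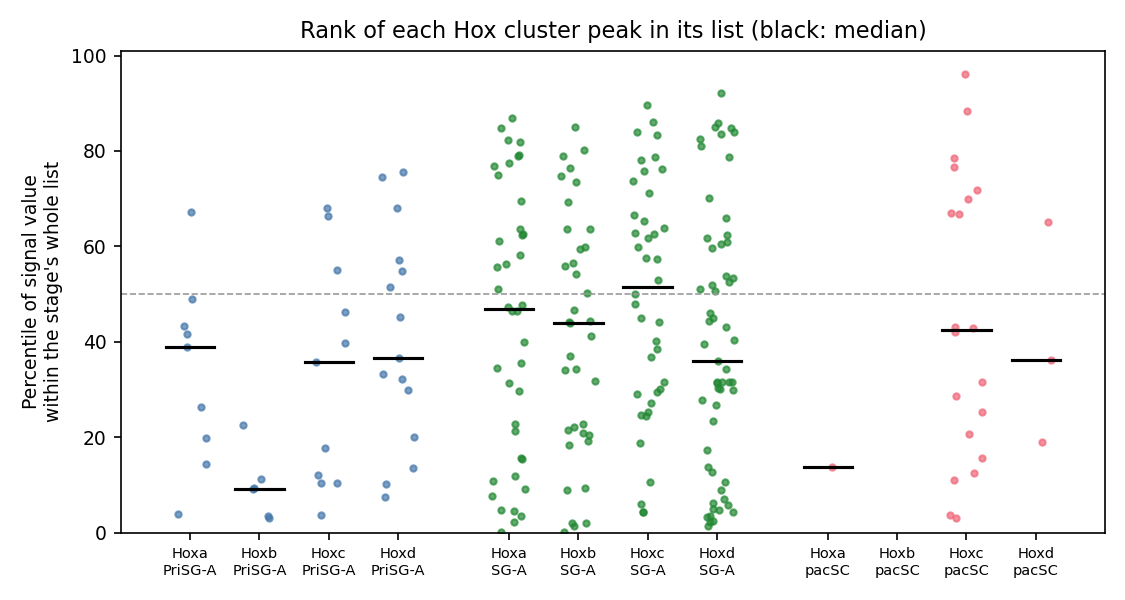
Percentile of signal value of each Hox cluster peak within the whole list of its stage, by cluster, with the median as a black line and the middle of the list dashed. Most medians lie below 50, and the highest single point is a pacSC peak of Hoxc at the 96.2 percentile.

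The leading peak of each cluster in SG-A was taken by signal value, which grows with width, so wide peaks were favoured. In Hoxd it lay at chromosome 2, 74542666 to 74544219, with a width of 1554 bp, a signal value of 3997.5 and a −log10 q of 6.82, at the 92.1 percentile of the list. In Hoxc it lay at chromosome 15, 102829097 to 102830665 (1569 bp, signal value 2989, percentile 89.6). In Hoxa it lay at chromosome 6, 52108054 to 52109013 (960 bp, signal value 2081, percentile 86.9). Each of these 3 was listed in PriSG-A and again in pacSC. In Hoxb it lay at chromosome 11, 96132315 to 96134196, and was the widest cluster peak of all at 1882 bp, with a signal value of 1587 (percentile 85.1). It overlapped a PriSG-A peak of 94 bp and no pacSC peak.

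Of the 8 SG-A peaks next in rank, 2 in each cluster, 6 overlapped a PriSG-A peak. In Hoxd they lay at 74600507 to 74601748 (signal value 1817) and 74529443 to 74530365 (1574). The first of these overlapped the PriSG-A peak of highest signal value in the clusters, 1047 bp wide with 379. The second overlapped a PriSG-A peak of 59 bp. In Hoxc they lay at 102751081 to 102752675 (1853) and 102796872 to 102797756 (1329), the first of them at the Hoxc13 side of the SG-A stretch. Both were listed in PriSG-A and pacSC. In Hoxa they lay at 52171360 to 52172227 (1511) and 52167000 to 52168032 (1059), and both overlapped PriSG-A peaks, of 158 and 138 bp, and no pacSC peak. In Hoxb they lay at 96160224 to 96160935 (783) and 96112007 to 96112702 (654), with no PriSG-A peak within 4148 and 15313 bp.

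In PriSG-A the leading peak of Hoxa, at 52108064 to 52108474, and that of Hoxc, at 102751059 to 102751436, lay inside leading SG-A peaks or overlapped them, with signal values of 202 and 211 in their own list. Hoxc also had PriSG-A peaks at 102829727 to 102829957 (191) and 102796930 to 102797035 (104), both inside leading SG-A peaks. Hoxd led with the 1047 bp peak described above, followed by 74542855 to 74543473 (351), inside the leading SG-A peak, and 74587399 to 74588045 (213). The last, 647 bp wide, was matched in SG-A by narrow peaks, the larger overlap being with 1 of 91 bp. The PriSG-A peaks of Hoxb were the weakest, led by 96096370 to 96096470 with 35.9 (percentile 22.5), 96133709 to 96133802 (26.7) and 96148343 to 96148442 (25.3). In Hoxa the other named PriSG-A peaks, at 52210433 to 52210685 (81.7) and 52153630 to 52153745 (66.5), were also listed in SG-A. Summits of the 31 PriSG-A cluster peaks found in SG-A lay a median of 214 bp from the SG-A summit, against 82 bp over all shared peaks.

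The comparison of SG-A with pacSC set mitotic spermatogonia against cells in meiotic prophase. The number of cluster peaks in pacSC was 0.138 times that in SG-A (0.0860 to 0.212), against 0.505 in the flanks (0.398 to 0.637) and 0.382 over the whole list. Without Hoxc, whose flanks on chromosome 15 were themselves rich in pacSC peaks, it was 0.0299 times (0.00802 to 0.0782), from 134 peaks to 4. The flank fold of 0.505 includes Hoxc, around which 90 of the 111 pacSC flank peaks lay. In the flanks of the other clusters it was lower, at 0.156 (0.0475 to 0.404) around Hoxa and 0.222 (0.115 to 0.401) around Hoxb. Around Hoxd it was 0.0690 (0.00797 to 0.273). At the length of the pacSC list the clusters held 14 PriSG-A peaks and 47 SG-A peaks, beside the 24 of pacSC. The fold from SG-A to pacSC was then 0.511 (0.299 to 0.852) in the clusters and 1.32 (0.986 to 1.78) in the flanks. The flanks, with those of Hoxc included, thus no longer held fewer peaks in pacSC. Without Hoxc the cluster numbers were 10, 31 and 4, and no flank fold without Hoxc was computed at that length.

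Of the 174 SG-A cluster peaks, 13 overlapped a pacSC peak, or 7.47% (4.42 to 12.4), against 16.9% over all SG-A peaks and 27.3% (21.8 to 33.5) in the flanks. In Hoxc it was 11 of 40, or 27.5% (16.1 to 42.8). In the other clusters it was 1 of 40 in Hoxa, 0 of 37 in Hoxb and 1 of 57 in Hoxd, together 1.49% (0.410 to 5.28). The flank share also differed by cluster. It was 43.8% (34.3 to 53.7) around Hoxc and 15.6% (6.86 to 31.8) around Hoxa. Around Hoxb it was 17.5% (10.0 to 28.6), and around Hoxd 6.90% (1.91 to 22.0). Wide peaks are listed again most often over the genome, and 70.3% of SG-A peaks at least 1000 bp wide overlapped a pacSC peak. Of the 10 such peaks in the clusters 3 did (30%, 10.8 to 60.3), against 34 of 39 in the flanks. Of the 164 narrower cluster peaks 10 did (6.10%, 3.35 to 10.9), against 8.08% of all. This pooled share hides a split, as 9 of the 38 narrower peaks of Hoxc did (23.7%, 12.99 to 39.2). In the other clusters together 1 of 126 did (0.794%, 0.140 to 4.36). The interval of Hoxc lay above the 8.08% of the list and that of the other clusters together below it. The narrower flank peaks split in the same direction. Around Hoxc 22 of 74 overlapped a pacSC peak (29.7%, 20.5 to 40.9). Around Hoxa 2 of 29 did, around Hoxb 2 of 51 and around Hoxd 0 of 27. The split was thus not particular to the clusters. At a −log10 q of 5 or more, 6 of 14 cluster peaks overlapped a pacSC peak (42.9%, 21.4 to 67.4), against 64.3% over the list. With pacSC peaks held to that limit too, 0 of the 14 did (upper bound 21.5%), against 18.5% over the list. When at least 50% of each peak had to overlap, 4 of the 174 did, or 2.30% (0.898 to 5.76), against 6.65% over the list and 10.9% (7.44 to 15.7) in the flanks.

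A peak-rich block on chromosome 10, from 79 to 81 Mb, was set beside the clusters. It held 498 peaks in SG-A and 74 in pacSC, 0.149 times as many (0.115 to 0.190), close to the 0.138 of the clusters. Of its SG-A peaks 10.8% (8.41 to 13.9) were listed again, and of those at least 1000 bp wide 45% (35.6 to 54.8). In these values the intervals of the block and of the 4 clusters together overlap. For the clusters without Hoxc, the fold of 0.0299 (0.00802 to 0.0782) and the share listed again of 1.49% (0.410 to 5.28) lay below the block's, with no overlap of intervals. Hoxc was left out after its high pacSC count was seen, so this gap does not test a difference from the block. Split by width, the intervals of the shares overlap. For narrower peaks they were 0.794% (0.140 to 4.36) without Hoxc and 2.26% (1.19 to 4.24) in the block. For peaks at least 1000 bp wide the share without Hoxc was 12.5% (2.24 to 47.1). Among the 237 windows with 30 or more SG-A peaks, 27.8% held at most 3 pacSC peaks and 4.64% held none, and the median was 5. Low pacSC counts in regions dense in SG-A peaks were thus found elsewhere too.

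Hoxc differed from the other clusters in pacSC. Its 20 peaks gave 100 per Mb, and its flanks gave 90 per Mb, a ratio of 1.11 (0.648 to 1.82). The flank on the low-coordinate side held 64 per Mb and that toward the end of the chromosome 116 per Mb, so the cluster lay between them. The Hoxc window ended 0.594 Mb before the last listed base of chromosome 15. In SG-A the same cluster held 200 peaks per Mb against 96 in its flanks. The fold from SG-A to pacSC was 0.5 in the cluster (0.277 to 0.876) and 0.938 in its flanks (0.695 to 1.26). The cluster fold was thus 0.533 times that of the flanks (0.290 to 0.981). In Hoxa this value was 0.16 (0.0178 to 1.44) and in Hoxd 0.763 (0.121 to 4.83), and both intervals included 1. Hoxb had a fold of 0 (upper bound 0.105), against 0.222 (0.115 to 0.401) in its flanks. The pacSC density ratio of Hoxd was 7.5 (0.859 to 89.8), from 3 cluster and 2 flank peaks.

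The 2 strongest pacSC peaks of Hoxc were not among the 3 strongest SG-A ones. The leading pacSC peak lay at 102845201 to 102846326, 1126 bp wide with a signal value of 2425 and a −log10 q of 5.70, at the 96.2 percentile of its list. The SG-A peak it overlapped was 93 bp wide with a signal value of 86.0, and no PriSG-A peak lay within 15031 bp. The next lay at 102773169 to 102774125 (957 bp, signal value 1132, percentile 88.5), over an SG-A peak of 822 bp. The third, at 102796893 to 102797264 (372 bp, 509), lay in the SG-A peak at 102796872 to 102797756. The leading SG-A peak of Hoxc, 1569 bp wide, was matched in pacSC by a peak of 345 bp at percentile 67.0.

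Over all clusters 18 of the 24 pacSC peaks overlapped an SG-A peak (75%, 55.1 to 88.0), against 54.2% of the pacSC list, and 7 a PriSG-A peak (29.2%, 14.9 to 49.2), against 48.1%. Of the 41 PriSG-A peaks 6 overlapped a pacSC peak (14.6%, 6.88 to 28.4), against 25.6%. In Hoxc, 14 of the 20 pacSC peaks overlapped an SG-A peak and 3 a PriSG-A peak. The other 6 were listed in pacSC alone, at widths from 74 to 162 bp. Of these, 3 lay at 102726451, 102740618 and 102741032, in the first 50 kb of the window, where SG-A and PriSG-A had no peak. In Hoxd the 3 pacSC peaks lay within the leading SG-A peak, at 74542814 to 74543023, 74543237 to 74543576 and 74543828 to 74543978, with signal values of 34.4, 203 and 58.5. The single pacSC peak of Hoxa, 78 bp wide at 52108473 to 52108550 with a signal value of 29.7, lay in the leading SG-A peak of that cluster. Outside Hoxc, what was listed in pacSC was thus found at the foremost SG-A peak of the cluster, and Hoxb had none.

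Joined over the stages, the cluster peaks made 189 separate regions. Of these, 142 (75.1%) were listed in SG-A alone, 10 in PriSG-A alone and 6 in pacSC alone. A further 18 were listed in both spermatogonial stages and not later, 8 in SG-A and pacSC, and 5 in all 3 of PriSG-A, SG-A and pacSC. Of the 5, 3 lay in Hoxc, 1 in Hoxa and 1 in Hoxd. All 8 of the regions shared by SG-A and pacSC alone, and all 6 of those in pacSC alone, lay in Hoxc. Peaks of the flanks and of the whole lists were not joined in this way, so these shares have no background beside them. SG-A had the longest list. Over that list, 38.5% of peaks overlapped a PriSG-A peak and 16.9% a pacSC peak.

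The last comparison, of pacSC with rST, set meiotic cells against haploid ones. None of the 24 pacSC cluster peaks overlapped an rST peak, which leaves an upper bound of 13.8%, against 14.3% over all pacSC peaks and 9 of 111 in the flanks. None of the 174 SG-A peaks did (upper bound 2.16%, against 4.09% over the list), and none of the 41 PriSG-A peaks (8.57%, against 6.46%). The rST list was the shortest, and 56.1% of the 237 windows with 30 or more SG-A peaks held no rST peak. The 11 rST peaks of the flanks were 4 around Hoxa, 0 around Hoxb, 6 around Hoxc and 1 around Hoxd, and the 6 around Hoxc all lay on the low-coordinate side. The bounds for pacSC and SG-A peaks lay below the shares over their lists, and that for PriSG-A peaks lay above. Over the SG-A list, peaks found in rST were 1529 bp wide in the median, and the SG-A cluster peaks 116.5 bp. Whether width accounts for the lower shares was not tested. By density, the ratio of clusters to flanks was 0 with an upper bound of 1.87. By that measure the absence was not set apart from the low number of rST peaks around the clusters.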

How the data were processed

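ATAC-seq peak lists of 4 stages were used from a series of 30 samples. The other 20 samples (Hi-C, ChIP-seq and input) were not analysed here. Every replicate of a stage carries the name of 1 common list. The PriSG-A list was assigned by those labels and by exclusion, as its name is garbled. Per the submitters' processing notes, Bowtie2 2.2.5, Bowtie, SAMtools and mm10 were used, and their roles are not stated there. For the peak caller, its settings, the pooling of replicates and any Tn5 shift, the sources used here give nothing. Peak positions lie off the GRCm38 gene table and within the chromosome lengths of mm9, and are given as in the files, 1-based.

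The deposited score equals 1000 times the deposited signal value over the peak width, capped at 1000, in 100% of peaks within a tolerance of 1. The signal value is thus an area, with no stated normalization, and ranks peaks within 1 list only. The authors' −log10 q-value was used for thresholds.

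Peaks were assigned by midpoint and called shared when 1 bp or more overlapped (Python 3.11.15, pandas 2.3.3, scipy 1.17.1). The overlap and interval code was tested on simulated data. Shares have Wilson intervals, and density ratios and folds between lists have exact conditional Poisson intervals. The fold of clusters over that of flanks has a log-scale Poisson interval. They treat neighbouring peaks as independent. The alternatives tried included a −log10 q limit of 5, equal list lengths, membership by any overlap, a reciprocal overlap of 50% and flanks of 250 kb. Joining peaks within 500 bp, leaving out Hoxc and holding spermatogonial lists to other lengths were added after seeing the data. Named regions are the 3 of highest signal value per cluster in PriSG-A, SG-A and pacSC, and others were chosen after their values were seen. The windows, the chromosome 10 block and the comparisons were chosen with earlier results of these data known.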

Additional observations from a re-analysis of the deposited data

How the results depend on the processing

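No paired analysis was possible because replicates of a stage share 1 peak list; for the same reason no replicate could be left out. Membership by any overlap gave values within 1.5 times, or within the interval, of those reported. Of 85 values under alternatives, 41 stayed so close, 40 moved and 4 were spermatogonial density ratios that went from above 1 to below it. The pacSC ratio, whose interval included 1 in each setting, was also below 1 in 4 settings, the values below and 0.930 with peaks joined and 0.879 without Hoxc.

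At a −log10 q of at least 5 the clusters held 0, 14 and 1 peaks in PriSG-A, SG-A and pacSC. The covered shares were 0, 1.64% and 0.132% in the clusters and 0.323%, 1.57% and 0.623% in the flanks, and 0 in the rST flanks. The density ratios were 0, 1.43 (0.727 to 2.65, which includes 1) and 0.261. With both lists so limited, 0% of SG-A cluster peaks were shared with pacSC. At equal list length the counts were 0, 0 and 2, the covered shares 0, 0 and 0.245% in the clusters and 0.323%, 0.798% and 0.773% in the flanks, and the ratios 0, 0 and 0.362. These settings keep fewer peaks.

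Held to the pacSC length, PriSG-A and SG-A kept 14 and 47 cluster peaks, with ratios of 0.928 and 2.63. SG-A kept 103 at the PriSG-A length and 99 when peaks within 500 bp were joined. Without Hoxc, pacSC kept 4 peaks and a covered share of 0.120%. The flank shares were then 0.581%, 1.48%, 0.313% and 0.0204% from PriSG-A to rST, the ratios 3.15 in PriSG-A and 4.99 in SG-A, and the share of SG-A peaks found in pacSC 1.49%. Flanks of 250 kb gave 0.0349% for rST. At a reciprocal overlap of 50%, 9.76% of PriSG-A cluster peaks were found in SG-A (32.2% over the list) and 2.30% of SG-A ones in pacSC (6.65%). Read depth behind the lists is unknown, so an unlisted region is not shown to be closed.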
